A study of Mus musculus with 4 samples.

Results

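Long noncoding RNAs of the mouse heart were followed after cyclophosphamide (CY), after its metabolite acrolein and after CY with N-acetyl cysteine (NAC). The genes were 10 listed members, namely the small nucleolar RNA (snoRNA) host genes Gas5, Snhg1, Snhg3, Snhg5, Snhg8 and Snhg12 and the nuclear or imprinted RNAs Neat1, Malat1, Meg3 and H19. Every probe carrying 1 of these names in the array files was taken, without regard to its signal, which gave 19 probes of 9 genes among 56605 probes and 37008 names. Malat1 was not analysed here. Of the 19 probes, 13 were well above background on all 4 arrays, 1 probe of Meg3 was so on the CY and acrolein arrays only, and 5 were so on no array (the second probes of Snhg5, Snhg8 and Snhg12, and 2 of Meg3, with normalised signals of 2.73 to 10.5). The 14 probes with a usable signal comprise 7 of snoRNA hosts, 2 of Neat1, 3 of Meg3 and 2 of H19.

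Heart RNA of female C57BL/6J mice, aged 6 weeks by the series text, was hybridised to 1 single-colour Agilent array per condition, 4 arrays in all. Mice of the NAC + CY group were injected with NAC at 200 mg/kg before CY at 400 mg/kg, the CY group with CY at 400 mg/kg, the acrolein group with acrolein at 5 mg/kg and the control group with normal saline (NS). Injections were given intraperitoneally once a day for 2 days, and hearts were collected 3 h after the last dose. The series text counts 3 independent studies and does not say whether RNA was pooled. Each condition was read on 1 array, so the differences below were not checked in replicates and carry no p-value. Probes well above background numbered 26677 to 28312 per array, and the median SD among repeated spots of the same probe was 0.047 to 0.05 log2 units. All 8 cardiomyocyte markers checked were well above background on every array. The samples are labelled heart tissue, and the authors' methods say that a section of it was frozen, without naming the part. The tissue was not sorted by cell type, so fewer cells of a type and less RNA per cell cannot be told apart.

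SnoRNA host genes carry snoRNAs, which guide the chemical modification or cleavage of ribosomal RNA, inside their introns. The spliced host transcript that is left usually codes for no protein. For Gas5 and several of its relatives this transcript begins with a run of pyrimidines, as the mRNAs of ribosomal proteins do, and is degraded by nonsense-mediated decay while it is being translated, so that it is known to accumulate when translation or growth stops. Neat1 is the scaffold of paraspeckles, which are nuclear bodies of RNA and protein. Meg3 and H19 are expressed from the maternal chromosome of 2 imprinted regions, beside Dlk1 and beside the growth factor gene Igf2. H19 is abundant in the embryo and falls in most tissues after birth.

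The probes whose values carry the results below are those of Gas5, Meg3 and H19, which read the following transcript sequences (5′ to 3′, mm9 positions of the array files). The first Gas5 probe covers chr1:162968590-162968649 on the plus strand. The second lies upstream of it at chr1:162967641-162968147 and spreads its 60 bases over 507 bases of genome, that is, across spliced exons. The Meg3 probe covers chr12:110783470-110783529 on the plus strand, and the H19 probes cover chr7:149761492-149761551 and chr7:149762173-149762232 on the minus strand.
Gas5 probe 1: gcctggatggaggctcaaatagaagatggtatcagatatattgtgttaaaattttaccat
Gas5 probe 2: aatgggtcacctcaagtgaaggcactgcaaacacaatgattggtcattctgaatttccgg
Meg3 probe 1: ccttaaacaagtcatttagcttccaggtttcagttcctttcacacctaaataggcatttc
H19 probe 1: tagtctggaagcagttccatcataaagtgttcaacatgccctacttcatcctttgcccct
H19 probe 2: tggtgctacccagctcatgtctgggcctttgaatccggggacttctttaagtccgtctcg

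All 6 host genes had a log2 ratio above 0 on CY against NS, although Gas5 alone was called, and their start sites are shown as well, taken from RefSeq on GRCm38.p6 as 25 bases before and 25 bases from the start. Capitals mark the longest unbroken run of C and T that overlaps the 10 bases on either side of the start. Positions are chr1:161034576-161034625 and chr1:161035141-161035190 for the 2 Gas5 entries, chr19:8723462-8723511 for Snhg1 and chr4:132308653-132308702 for Snhg12 on the plus strand, and chr4:132353662-132353711 for Snhg3, chr9:88522873-88522922 for Snhg5 and chr3:123508312-123508361 for Snhg8 on the minus strand.
Gas5 start 1: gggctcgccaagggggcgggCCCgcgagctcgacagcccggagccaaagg
Gas5 start 2: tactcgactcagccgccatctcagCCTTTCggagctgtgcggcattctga
Snhg1: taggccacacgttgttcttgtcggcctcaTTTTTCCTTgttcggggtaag
Snhg3: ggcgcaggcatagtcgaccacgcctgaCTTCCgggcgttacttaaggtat
Snhg5: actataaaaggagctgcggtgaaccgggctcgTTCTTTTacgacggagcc
Snhg8: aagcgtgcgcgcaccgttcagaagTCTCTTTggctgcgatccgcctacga
Snhg12: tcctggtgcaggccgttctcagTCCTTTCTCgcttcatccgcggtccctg

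The pyrimidine run was 9 bases long at Snhg1 and Snhg12, 7 at Snhg5 and Snhg8, 6 at the second Gas5 start, 5 at Snhg3 and 3 at the first Gas5 start. The run covers the first base of the transcript at the second Gas5 start, Snhg8 and Snhg12. It begins after that base at Snhg1, Snhg3 and Snhg5, and ends before it at the first Gas5 start. The median over these 7 starts was 7 bases, against 6 over the starts of 68 cytosolic ribosomal protein genes and 4 over all 32851 RefSeq starts in the table. These lengths do not require that the run cover the first base. A run of at least 9 bases was found at 9.55% of all starts, at least 7 at 19.7%, at least 6 at 29.2%, at least 5 at 44.9% and at least 3 at 82.9%. In the wider windows of 250 bases before to 50 after the start, searched on both strands, TATAAA was present in 4 of the 7 host windows and in 13.6% of all windows. CTTCCG was present in 3 of 7 and in 16.9% of all, and CACGTG in 0 of 7 and in 7.15% of all. These matches describe letters in a window and were not tested as sites.

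In the CY-treated heart both Gas5 probes were called higher than in NS, and the probes of the other hosts stood higher without a call. Gas5 probe 1 had a normalised signal of 6230 on the NAC + CY array, 8140 on CY and 4080 on acrolein, against 4110 on NS, in arbitrary fluorescence units after quantile normalisation over the 4 arrays. Gas5 probe 2 gave 5840 on NAC + CY, 8130 on CY and 3930 on acrolein, against 3780 on NS. Both probes therefore stood highest on CY and second on NAC + CY, with acrolein close to NS. The CY over NS ratio was 1.98-fold for probe 1 (log2 ratio 0.99, Z-score 2.23) and 2.15-fold for probe 2 (1.11, Z-score 2.85). The Z-score is the distance of a log2 ratio from the mean of the 200 probes nearest in signal, in units of their SD, and calls needed both a Z-score and a ratio (2 or more and 1.5 or more for higher, -2 or less and 0.66 or less for lower). Both Gas5 probes were called, and their log2 ratios differed by 0.12. The SD expected from repeated spots of that brightness was 0.078 for probe 1, which holds for a single ratio and not for a difference between 2 ratios. Their ratios exceeded those of 94.4% and 95.4% of all probes measured.

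The Snhg genes were each read by 1 usable probe, and each was highest on the CY array. Snhg1, whose introns hold several box C/D snoRNAs, had a signal of 169 on NAC + CY, 255 on CY and 145 on acrolein, against 126 on NS (chr19:8798913-8798972, plus strand). Snhg5 had 489 on NAC + CY, 683 on CY and 316 on acrolein, against 385 on NS (chr9:88415923-88415982, minus strand). Snhg12 had 580 on NAC + CY, 774 on CY and 435 on acrolein, against 442 on NS (chr4:131866864-131866922, plus strand). These 3 genes shared the order of Gas5 in their first 2 places. Snhg8, host of a box H/ACA snoRNA, had 5010 on NAC + CY, 5620 on CY and 3180 on acrolein, against 3550 on NS (chr3:123210508-123210567, minus strand). Snhg3 had 1590 on NAC + CY, 1950 on CY and 1070 on acrolein, against 1320 on NS (chr4:131908005-131908064, minus strand). All 7 usable host probes were highest on CY and second on NAC + CY, and the lowest array was acrolein for 5 of them and NS for 2. The last 2 places differed by 0.01 and 0.06 log2 units for the Gas5 probes and by 0.02 for Snhg12. These gaps were below the SD expected from repeated spots (0.078, 0.079 and 0.11), so the lowest array is not settled for these probes.

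**Figure D1:**
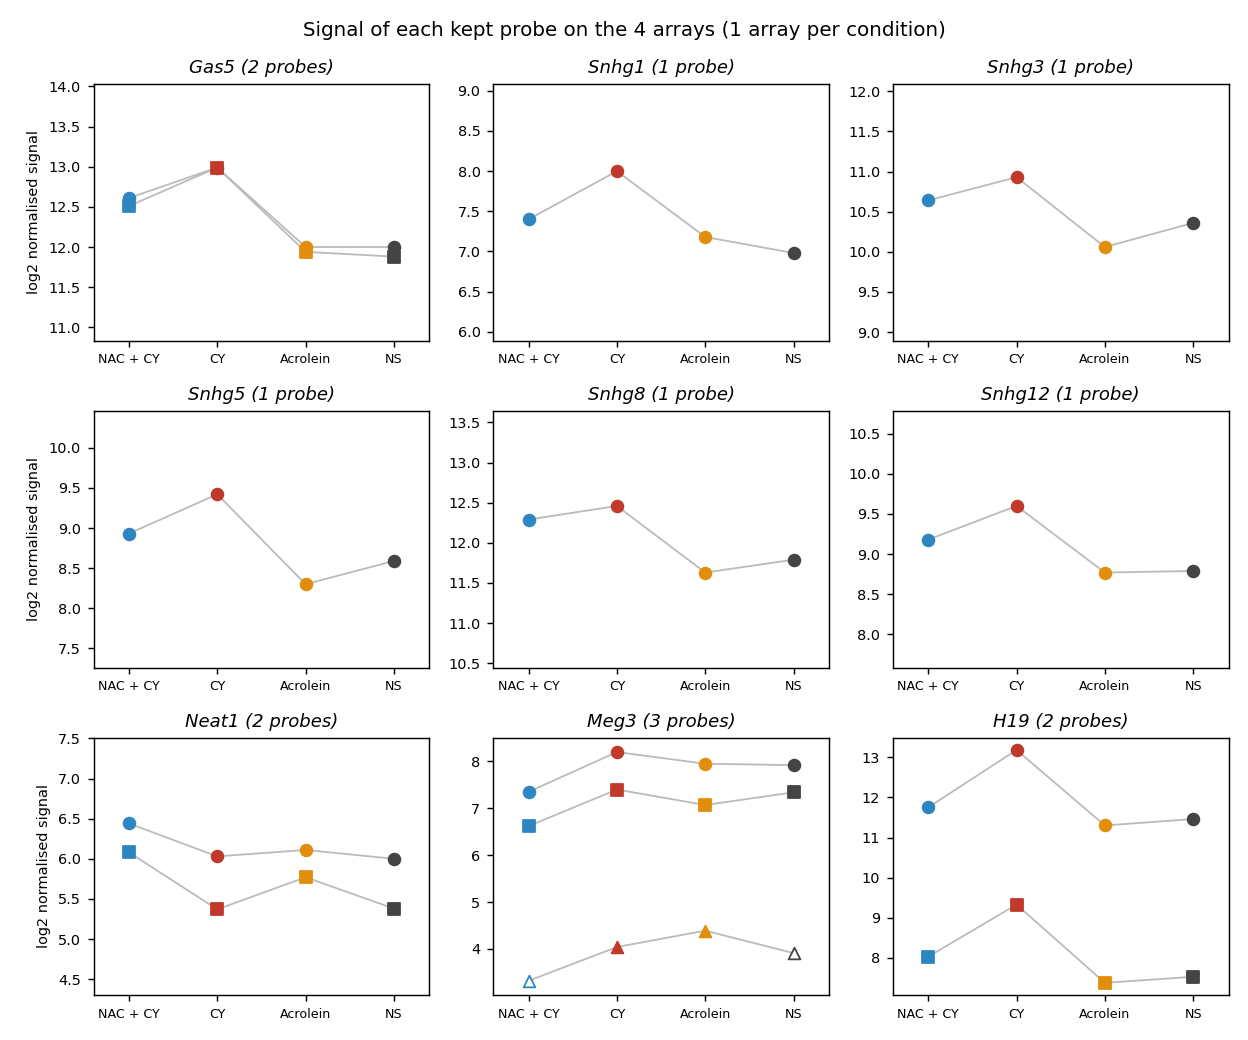
Log2 normalised signal (vertical axis, scaled for each gene) of each usable probe on the NAC + CY, CY, acrolein and NS arrays, 1 point per array, with marker shapes for different probes of a gene and open points for signals not well above background. The CY array is highest for all 7 host probes and for both H19 probes, and the Meg3 probes are lowest on NAC + CY.

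Against NS, Snhg1 was 2.03-fold higher on CY (log2 ratio 1.02), Snhg5 1.78-fold (0.83), Snhg12 1.75-fold (0.81), Snhg8 1.58-fold (0.66) and Snhg3 1.48-fold (0.57). None of these 5 reached a Z-score of 2 (1.37 to 1.73), so they were not called. Probes of like signal were spread by 0.66 log2 units around Snhg1 but by 0.43 around Gas5 probe 1, so that nearly the same ratio passed for Gas5 and not for Snhg1. All 5 ratios exceeded the SD expected from repeated spots, which was 0.15 for Snhg1 and 0.099 for Snhg3. This SD rests on 3 and 8 repeated probes of like brightness, and it holds the error of the array and not that between hearts.

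Among all 14 usable probes, 4 (28.6%) were called higher on CY than on NS, and 0 lower. Of the 28757 probes measured in this comparison, 2.84% were called higher and 5.39% in either direction. The 4 were the 2 of Gas5 and the 2 of H19. By the ratio of 1.5 alone, 8 of 14 members and 6 of 7 host probes (85.7%) were higher, against 11.8% of all probes. Taken by gene through the brightest usable probe, the 6 hosts had a median log2 ratio of 0.82, with a range of 0.57 to 1.02, against -0.011 over all probes. The spread of the CY comparison was wide, the SD within the Z-score windows having a median of 0.58 log2 units.

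On the acrolein array the hosts lay close to NS. Of 14 usable probes 0 were called, where 2.29% of all probes were called in either direction, and by the ratio alone 0 of 14 passed against 7.31% of all. The 6 hosts had a median log2 ratio of -0.09, with a range of -0.30 to 0.20, against 0.01 over all probes. Snhg3 had a Z-score of -2.46, with a ratio of 0.81 that did not reach the criterion, and Snhg5 had a log2 ratio of -0.28 (Z-score -1.64). The window SD was narrow in this comparison, at a median of 0.22 log2 units.

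In the NAC + CY heart the hosts lay between the CY and NS arrays. Against NS, 0 of 13 usable probes were called, where 4.60% of all probes were called in either direction. The host median was 0.41, with a range of 0.27 to 0.60, against 0.0056 over all probes, and the Gas5 probes were 1.52-fold and 1.55-fold higher with Z-scores of 1.88 and 1.89. Against CY, the host median was -0.40, with a range of -0.60 to -0.17, against 0.031 over all probes, and 0 of 7 host probes were called although all 7 ratios were below 0. Among all 14 usable members 3 (21.4%) were called lower on NAC + CY than on CY, where 2.34% of all probes were called lower and 3.58% in either direction. These 3 were both H19 probes and Meg3 probe 1. The 3 ratios to NS share the NS array, and the ratio of NAC + CY to CY shares the CY array with the first, so they are given side by side and not as separate evidence.

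**Figure D2:**
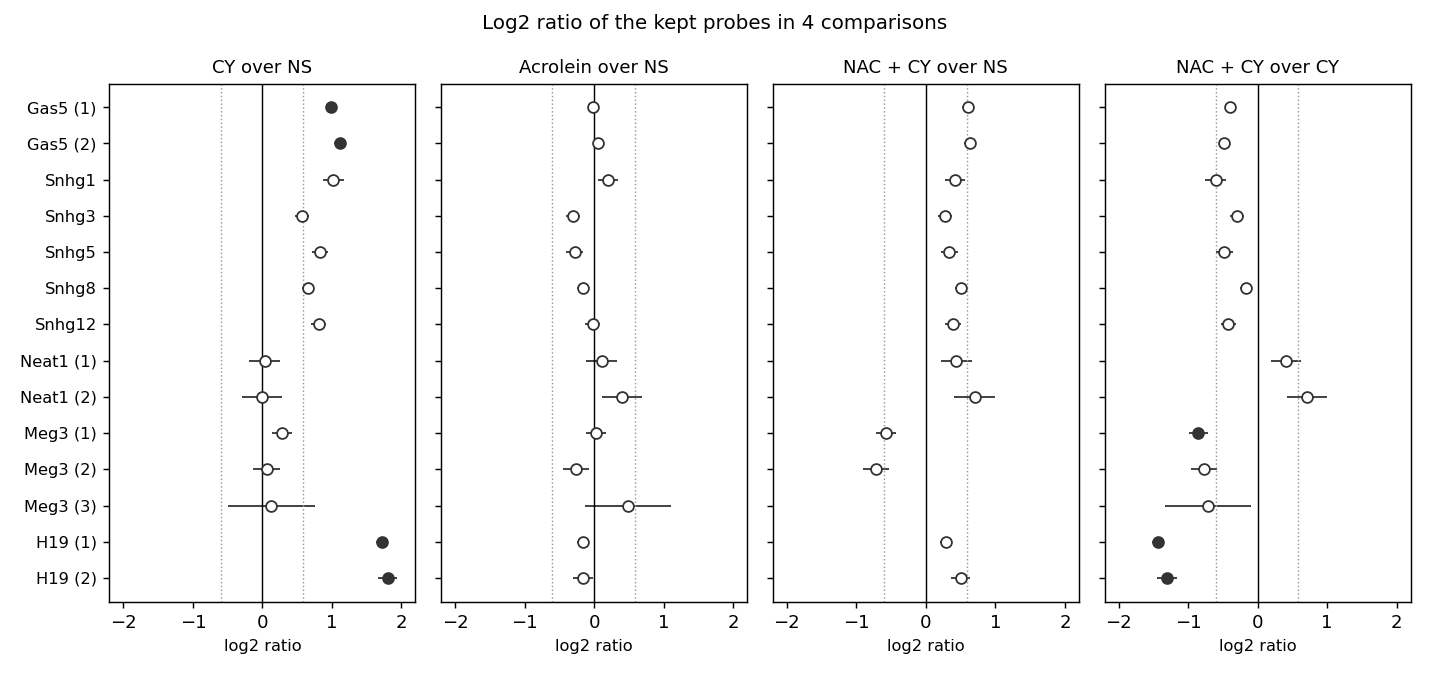
Log2 ratio (horizontal axis) of each usable probe in the 4 comparisons, with bars of 1 SD expected from repeated spots of like brightness, filled points for called probes and dotted lines at ratios of 0.66 and 1.5. In CY over NS the host probes sit at 0.57 to 1.11 and H19 at 1.72 and 1.80, and in NAC + CY over CY the H19 probes sit at -1.43 and -1.30.

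**Figure D3:**
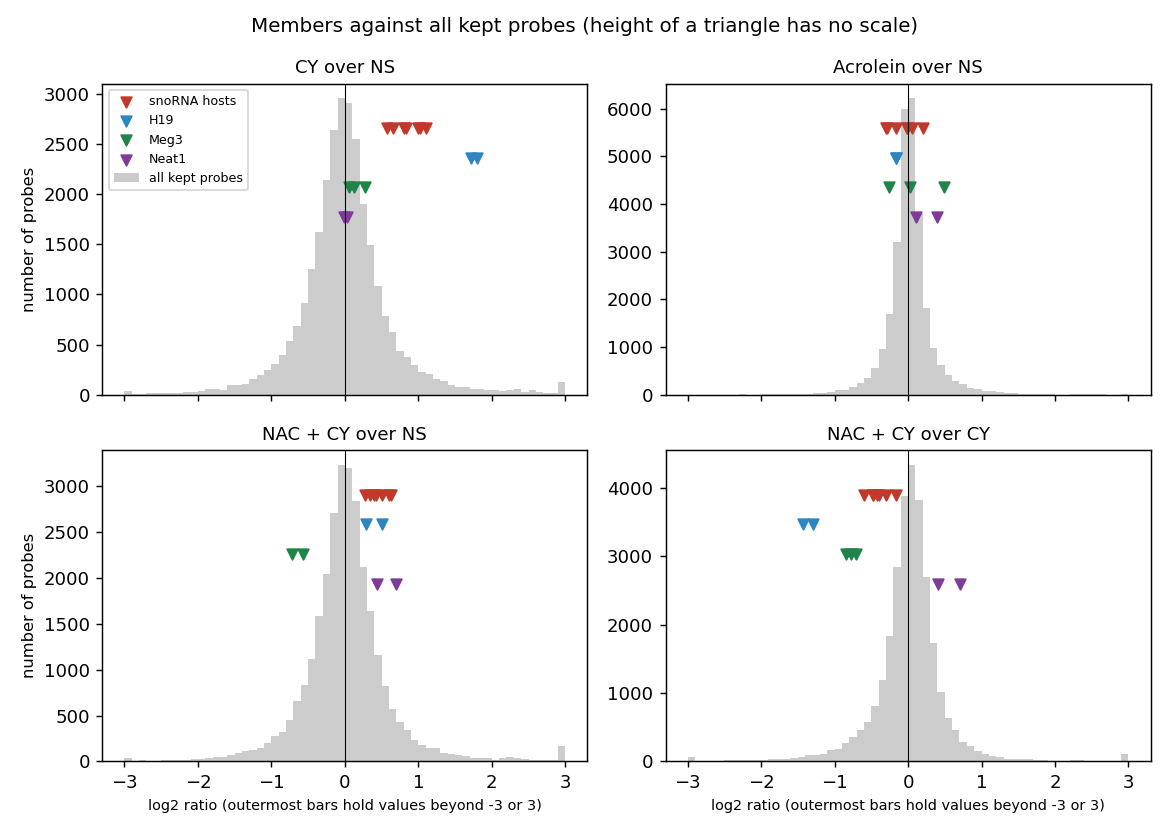
Number of all measured probes (vertical axis) by log2 ratio (horizontal axis, bars of 0.1) in the 4 comparisons, with triangles at the ratios of the host, H19, Meg3 and Neat1 probes. In CY over NS every host triangle lies to the right of the bulk of probes, and in acrolein over NS they lie within it.

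Other genes that carry snoRNAs were read for comparison. Of 21 further noncoding hosts listed, 15 were measured in the CY comparison, and 2 were called higher and 0 lower, with a median of 0.27 and 5 of 15 higher by the ratio alone. Zfas1, which hosts snoRNAs antisense to the start of Znfx1, had 1510 on NAC + CY, 2500 on CY and 995 on acrolein, against 1100 on NS (log2 ratio 1.18 for CY over NS). The transcript 2410006H16Rik had 874 on NAC + CY, 1510 on CY and 621 on acrolein, against 607 on NS (1.32). Both genes stood highest on CY and second on NAC + CY, and both were called lower on NAC + CY than on CY (-0.73 for Zfas1 and -0.79 for 2410006H16Rik). Against NS, 0 of 15 were called on NAC + CY, and 1 of 16 was called on acrolein, D17H6S56E-5 at 0.79.

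Protein-coding hosts had ratios nearer to 0. Of 40 measured, Eef1a1, a translation elongation factor, was called higher on CY at 20700 against 11700 on NS (0.82), and the median over the list was 0.13. Eif4a2, an RNA helicase of translation initiation, was called higher on NAC + CY at 18700 against 10800 on NS (0.80), and the list median there was 0.08. Of 78 cytosolic ribosomal protein genes 0 were called in any of the 4 comparisons, with medians against NS of 0.01 for NAC + CY, 0.09 for CY and -0.01 for acrolein. Of 31 genes of snoRNP and ribosome assembly and 16 of nonsense-mediated decay, also 0 were called in any comparison, and their medians on CY against NS were 0.05 and 0.15. Of all probes, 2.29% to 5.39% were called in either direction in the 4 comparisons. In lists of 16 and 31 genes such shares amount to few calls, so 0 calls there are not read as a result. Ratios of CY over NS were above 0 for 76.9% of the ribosomal protein genes, 54.8% of the assembly genes and 68.8% of the decay genes, against 48.8% of all probes.

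Protein-coding genes beside the hosts on the chromosome were read as well. Slc3a2, an amino acid transporter subunit that lies 118 bases from Snhg1 in RefSeq on GRCm38.p6, had 6230 on NAC + CY, 6170 on CY and 5720 on acrolein, against 6050 on NS (0.03 for CY over NS). Prss12, which encodes the protease neurotrypsin and lies 950 bases from Snhg8, had 56.5 on NAC + CY, 206 on CY and 48.6 on acrolein, against 76.3 on NS. It was called higher on CY than on NS (1.44) and lower on NAC + CY than on CY (-1.87). Of the 19 neighbours measured in the CY comparison 2 were called higher and 1 lower, with a median of 0.07.

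H19 showed the highest ratio of the members. Probe 1 had 3450 on NAC + CY, 9270 on CY and 2520 on acrolein, against 2810 on NS. Probe 2 had 262 on NAC + CY, 643 on CY and 166 on acrolein, against 185 on NS. For both probes the CY array was highest, with the other 3 arrays well below it. Against NS, CY was 3.30-fold higher by probe 1 (log2 ratio 1.72, Z-score 4.43) and 3.47-fold by probe 2 (1.80, Z-score 3.18), and both were called. The SD of a single ratio expected from repeated spots was 0.086 for probe 1 and 0.14 for probe 2. The log2 ratios of the probes differed by 0.07, a difference between ratios to which this SD does not apply. NAC + CY was called lower than CY by both probes, 2.69-fold by probe 1 (-1.43, Z-score -5.00) and 2.46-fold by probe 2 (-1.30, Z-score -4.01). Against NS, NAC + CY had log2 ratios of 0.29 and 0.50 and acrolein -0.16 by each probe, and none of these was called.

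Other imprinted genes moved on the same array. Of 19 listed genes measured in the CY comparison 4 were called higher and 1 lower, with a median of 0.11. Igf2, the fetal growth factor next to H19, had 573 on NAC + CY, 1910 on CY and 596 on acrolein, against 627 on NS (1.61 for CY over NS). Mest, which is expressed from the paternal chromosome, had 56.9 on NAC + CY, 168 on CY and 22.9 on acrolein, against 38.7 on NS (2.12). Igf2 and Mest shared the high CY array with H19 and were called lower on NAC + CY than on CY (-1.74 and -1.56). Unlike H19 and Igf2, Mest was also called lower on acrolein than on NS (-0.76), the 1 call among 17 listed genes measured there. Usp29, named after its values were seen, had 45.9 on NAC + CY, 108 on CY and 40.9 on acrolein, against 37.7 on NS (1.51 for CY over NS and -1.23 for NAC + CY over CY, both called). Plagl1, a zinc finger transcription factor, differed from these, with 7280 on NAC + CY, 6760 on CY and 1480 on acrolein, against 1580 on NS. It was called higher in both CY groups (2.21 on NAC + CY and 2.10 on CY), and NAC + CY over CY was 0.11. In NAC + CY over CY, 5 of 18 were called lower and 0 higher, and besides Igf2, Mest and Usp29 these were Ascl2, with 9.9 on NAC + CY, not well above background, against 26.4 on CY, and Peg3 (-0.88, also named after its values were seen).

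Markers of other cell types also differed between the arrays, some lists in the order of H19 and others not. The summed signal of 8 mesothelium markers was 2400 on NAC + CY, 7120 on CY and 1230 on acrolein, against 2390 on NS, with 7 of 8 called higher on CY than on NS and 7 of 8 lower on NAC + CY than on CY. That of 5 atrial muscle markers was 488000 on NAC + CY, 797000 on CY and 380000 on acrolein, against 305000 on NS, with 5 of 5 called higher on CY than on NS. That of 6 platelet markers was 2060 on NAC + CY, 7610 on CY and 2790 on acrolein, against 2870 on NS, with 6 of 6 called higher. All 3 sums were, like H19 and the host genes, higher on CY than on the 3 other arrays. The mesothelium and atrial markers were well above background on every array, as were 3 of 6 platelet markers on NAC + CY, and no sum was at 0. The 6 fibroblast markers summed to 62400 on NAC + CY, 84500 on CY and 56800 on acrolein, against 55400 on NS, with 0 of 6 called on CY. Dcn made up most of this sum, at 55500 on NAC + CY, 72200 on CY and 45300 on acrolein, against 43100 on NS. The median log2 ratio of the fibroblast list against NS was 0.05 on CY and -0.53 on NAC + CY, with 2 of 6 called lower on NAC + CY. The cardiomyocyte sum was 1450000 on NAC + CY, 1390000 on CY and 1600000 on acrolein, against 1600000 on NS. Other lists had other orders. Adipocyte markers summed to 16400 on NAC + CY, 6690 on CY and 1000 on acrolein, against 4440 on NS (2 of 5 called higher on CY than on NS), and neutrophil markers to 4200 on NAC + CY, 1610 on CY and 3000 on acrolein, against 530 on NS (2 of 4 called higher). Mural cell markers summed to 12900 on NAC + CY, 11100 on CY and 28500 on acrolein, against 28600 on NS (2 of 5 called lower), and endothelium markers to 3480 on NAC + CY, 3130 on CY and 5720 on acrolein, against 6230 on NS (1 of 4 called lower). Both of these lists were thus lowest on CY, where H19 was highest. Of 5 lymphocyte markers measured, 3 were called lower on CY than on NS. The part of these markers in the H19, Igf2 and host ratios was not tested.

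**Figure D4:**
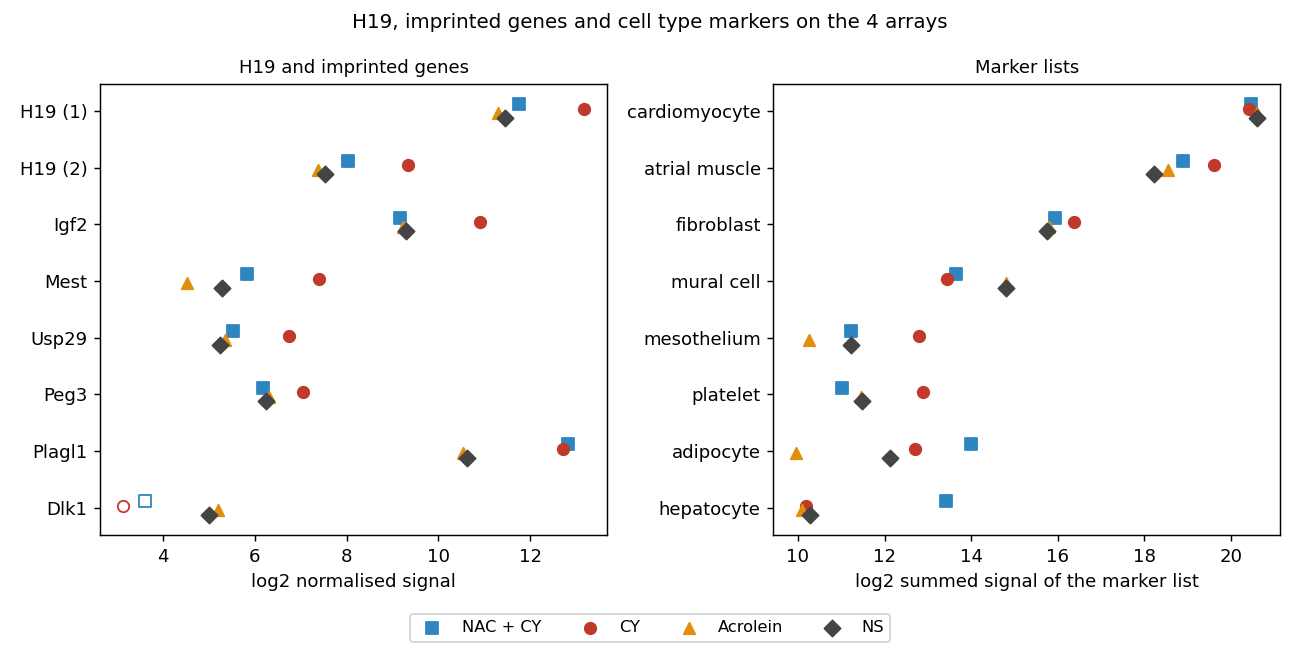
Log2 normalised signal of H19 and imprinted genes (left) and log2 summed signal of cell type marker lists (right) on the NAC + CY, CY, acrolein and NS arrays, 1 point per array, with open points in the left panel for signals not well above background. The CY point stands to the right for H19, Igf2, Mest, Usp29 and for mesothelium and platelet markers, and Plagl1 is high on both CY arrays.

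Meg3 was lowest on the NAC + CY array. Probe 1 had 163 on NAC + CY, 294 on CY and 247 on acrolein, against 242 on NS. A second probe, farther along the gene at chr12:110809678-110809737, had 98.4 on NAC + CY, 168 on CY and 135 on acrolein, against 162 on NS. Both put NAC + CY below the 3 other arrays, which ran from 242 to 294 for probe 1 and from 135 to 168 for the second. The step down to NAC + CY from the next lowest array was 0.57 log2 units for probe 1 and 0.45 for the second. For the second probe acrolein itself lay 0.26 below NS, with an SD expected from repeated spots of 0.19. NAC + CY was 1.81-fold lower than CY by probe 1 (log2 ratio -0.85, Z-score -2.12, called) and 1.71-fold lower by the second (-0.77, Z-score -1.93, not called), so the 2 probes fell on either side of the criterion with nearly equal ratios. Against NS, NAC + CY had -0.57 and -0.72 (Z-scores -1.14 and -1.35) and CY 0.28 and 0.06, with no call. The remaining usable probe (chr12:110782745-110782804) was well above background on CY at 16.4 and acrolein at 21.0 only, and read at least 1.31-fold lower on NAC + CY than on CY, measured against the lowest signal well above background on that array. Its log2 ratio was -0.71 (Z-score -0.77, not called), with an SD expected from repeated spots of 0.62. Under the normexp background correction described below the ratio was -0.07, so this probe adds little.

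Dlk1, the paternally expressed neighbour of Meg3 that encodes a Notch-like transmembrane protein, followed another order. Its signal was 12.2 on NAC + CY, 8.74 on CY and 36.4 on acrolein, against 32.2 on NS, and the NAC + CY and CY signals were not well above background. It was at least 2.57-fold lower on NAC + CY and at least 2.51-fold lower on CY than on NS. Dlk1 was called lower than NS on CY (log2 ratio -1.88) but not on NAC + CY (-1.39). On the array where Meg3 was low, 7 of 7 hepatocyte markers were well above background, with a summed signal of 11000 on NAC + CY, 1160 on CY and 1100 on acrolein, against 1240 on NS. Between NAC + CY and CY, adipocyte markers were called higher for 5 of 5 and neutrophil markers for 3 of 4, while mesothelium markers were called lower for 7 of 8, platelet markers for 6 of 6, atrial muscle markers for 4 of 5, erythroid markers for 3 of 3 measured and fibroblast markers for 3 of 6. The part of these markers in the Meg3 ratio was not tested.

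Neat1 gave no call in any comparison. Probe 1 (chr19:5844123-5844182, minus strand) had 86.8 on NAC + CY, 65.2 on CY and 69.3 on acrolein, against 64.1 on NS. Probe 2 (chr19:5844378-5844437, minus strand) had 67.7 on NAC + CY, 41.3 on CY and 54.7 on acrolein, against 41.6 on NS. Both were highest on NAC + CY and near equal on CY and NS. NAC + CY over NS was 0.44 by probe 1 and 0.70 by probe 2 (Z-scores 0.49 and 0.75), where probes of like signal were spread by 0.82 and 0.87 log2 units. A further probe named NEAT1 in the files, in capitals and so outside the member rule, lies at chr19:5842654-5842713 on the same strand and had 3510 on NAC + CY, 2680 on CY and 4390 on acrolein, against 3750 on NS (-0.48 for CY over NS), also with no call. This probe was highest on acrolein, whereas the 2 Neat1 probes were highest on NAC + CY.

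Proteins of paraspeckles held 1 call on CY and 1 on NAC + CY against NS. These counts lie near the shares of all probes called, 5.39% and 4.60%. Of 19 measured, Rbm3, a cold-inducible RNA-binding protein, was called higher on CY at 6500 against 2960 on NS (1.14), and its relative Cirbp was called higher on NAC + CY at 8040 against 4890 on NS (0.72). The list medians against NS were -0.08 for NAC + CY, -0.04 for CY and -0.01 for acrolein. Of 23 nuclear speckle proteins, the compartment in which Malat1 resides, 0 were called in any comparison. With 2.29% to 5.39% of all probes called, 0 of 23 is not read as a result. Of 21 other long noncoding RNAs measured on CY, 1 was called higher and 1 lower, where 5.39% of all probes were called in either direction. Mir22hg was called higher, with 1030 on NAC + CY, 879 on CY and 341 on acrolein, against 386 on NS (1.42 for NAC + CY and 1.19 for CY over NS). Crnde was called lower on CY, with 600 on NAC + CY, 393 on CY and 844 on acrolein, against 846 on NS (-1.11 for CY over NS and 0.61 for NAC + CY over CY).

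Genes whose 3 log2 ratios to NS lay nearest to those of the called members were sought among 17843 genes, by Euclidean distance. For H19 these were the IGF-binding protein gene Igfbp3 (distance 0.067, with ratios of 0.30 on NAC + CY, 1.68 on CY and -0.21 on acrolein), the helix-loop-helix inhibitor Id2 (0.082) and Aplp1 (0.17). For Gas5 they were Rhbdl3 (0.073), the interferon-induced protease gene Usp18 (0.081) and Epop (0.086). For Meg3, Pla2g5, a secreted phospholipase A2, was nearest (0.083), followed by AY702103 (0.092) and a transcript of chromosome 2 with no gene name (0.098). Each distance rests on 4 arrays.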

How the data were processed

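The authors extracted the spots of 4 single-colour Agilent arrays with Feature Extraction, given as version 9.5.1.1 in the submitters' notes and 10.7.1.1 in the file headers. The deposited intensity values are processed signals after background subtraction, not yet normalised. The log2 signals of 59305 spots, controls left out, underwent quantile normalisation over the arrays before repeated spots were averaged into 1 value per probe. No spot was saturated (0). This normalisation, the P flag and the Z-score and ratio criteria follow the authors' methods. The P flag required a positive and significant signal well above background with no saturation or outlier mark, and a probe entered a comparison with a P flag on at least 1 of its 2 arrays. The Z-score window of 200 probes is a choice made here. The SD of repeated spots came from 300 probes spotted 10 times on each array. Each usable member took it from those within 1 log2 unit of its mean signal, from 3 probes for Snhg1 to 39 for Gas5 probe 1. Other probes were named through RefSeq (GRCm38.p6) by accession (32994), symbol (10224) or synonym (520), and 12867 kept the name of the file. A gene was represented by its brightest P-flagged probe.

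The members and the 10 gene lists and 14 marker lists were chosen with earlier results of these data known. Named genes were all members, up to 4 called genes of each list with the largest ratios, the 3 nearest genes of called members and chromosome neighbours, and genes named beyond this rule are marked in the text. Precision is limited by the number of arrays. Alternatives covered the normalisation, the background correction (normexp, offset 50, limma 3.58.1 in R 4.3.3), a floor, the filter on dim probes, the deposited value table of the series, which holds the authors' linear signals of the same arrays (a median of 13.9 in every column, by a normalisation it does not state), the probe of a gene and the Z-score and ratio criteria. Python 3.11.15 with numpy 2.4.6, pandas 2.3.3 and matplotlib 3.10.9 was used. One neighbouring gene is not reported here.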

Additional observations from a re-analysis of the deposited data

How the results depend on the processing

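With the Z-score built on the median and the median absolute deviation, 8 member probes were called higher on CY than on NS in place of 4 (6 of hosts, 2 of H19), and 2 on NAC + CY than on NS in place of 0 (both of Gas5). With a Z-score of 3, 2 were called on CY, both of H19. The H19 probes were called under all 11 alternatives in CY against NS and in NAC + CY against CY, the Gas5 probes under 9 and 10 of 11 in CY against NS, and Meg3 probe 1 under 6 of 11 in NAC + CY against CY, where 2 to 4 members were called. No called ratio changed sign. The normexp correction moved 10 of 55 ratios by more than the SD of repeated spots, all towards 0, such as Snhg1 on CY to 0.75 and H19 probe 2 on CY to 1.5, and the median over probes moved 2 of 16 gene values. Counts over all probes moved by more than 1.5 times with the median absolute deviation (3245 against 1551 for CY, 2854 against 1328 for NAC + CY and 1915 against 1052 for NAC + CY over CY), with a Z-score of 3 (517, 479 and 473, and 221 against 657 for acrolein), with a ratio of 2 alone (2848 for CY and 2350 for NAC + CY) and with normexp for acrolein (118). The causes were not tested. Of the Meg3 probes, 1 was well above background on 2 arrays only, and 5 member probes gave no value. No paired analysis was possible because each condition has 1 array.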

Other observations

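Probes named for snoRNAs were read beside the host genes. Whether they read the snoRNA itself or a longer transcript that holds it was not tested. Of 13 such probes 9 were usable, and their median log2 ratio was -0.38 on NAC + CY, 0.08 on CY and -0.55 on acrolein against NS. The genes below were named after their values were seen. Snora73a, which lies within Snhg3 (probe at chr4:131908690-131908749, minus strand, mm9), had 3850 on NAC + CY, 6690 on CY and 3750 on acrolein, against 5020 on NS, and was called lower on NAC + CY than on CY (-0.80). On this probe CY was again highest, at 0.41 over NS with no call, while NAC + CY lay below NS, unlike the probe of Snhg3. On acrolein Snora34 (-0.87) and Snora74a (-0.66) were called lower than on NS, and on NAC + CY Snord17 (-1.21) was. No usable probe named for a snoRNA (0 of 9) was called on CY against NS, where 5.39% of all probes were called.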
